A study of Mus musculus with 86 samples.

Results

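The genes described here are 10 genes of the ventricular lining of the brain, measured by RNA-seq in wild house mice in 3 brain regions, which were prefrontal cortex, hippocampus and hypothalamus. They were taken by name, as the genes of the count table whose Ensembl identifiers map to Foxj1, Ccdc153, Tmem212, Dynlrb2, Rsph1, Ak7, Cfap126, Rarres2, Crym and Gpr50, and all 10 were found among 35275 genes. The first 7 are genes of motile cilia, and Rarres2, Crym and Gpr50 were listed with tanycytes and the ventricular wall. Libraries came from punches of sectioned frozen brains, which for the hippocampus covered all of it, of 29 free-living Mus musculus domesticus of a barn population, 1 library per animal and region, and no transgene, drug or bred strain was involved. Animals of both sexes were chosen at the extremes of social network size, the number of partners met in nest boxes, which the sample records call gregariousness (high for large, low for small). Each sex gave 7 large-network and 7 small-network animals per region, apart from 8 small-network males in the prefrontal cortex and hippocampus, 1 of which had no hypothalamus library. Ages estimated by the authors were not used here, and nothing but the animal number ties the libraries of 1 animal together. A punch holds every cell type of its place, so that fewer cells of a type and less RNA per cell cannot be told apart.

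The walls of the brain ventricles are lined by ependymal cells, which carry tufts of beating cilia that move the cerebrospinal fluid. The cilium is built around an axoneme, in which dynein arms slide the outer microtubule doublets and radial spokes pass signals from the central pair, and the genes for these parts are switched on by the forkhead factor Foxj1 together with factors of the Rfx family. In the floor and lower walls of the third ventricle, which runs through the hypothalamus, many of the lining cells are tanycytes, elongated glia with few or no motile cilia that take part in hormone transport and in the sensing of metabolic state.

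Libraries held between 33711824 and 81865801 counts, with a median of 44778419. Values are CPM, the count of a gene relative to the library's total after edgeR's TMM scaling over all 86 libraries. The summed level of 6 neuropeptide genes of hypothalamic neurons lay between 91.9 and 1421 CPM in the hypothalamus, at no more than 6.83 CPM in the prefrontal cortex and at no more than 82.3 CPM in the hippocampus, the last in animal 7. The lowest of the hypothalamus libraries was that of animal 10 (small-network male), against a median of 821 CPM. Ttr, the transthyretin gene and the leading marker of the choroid plexus, which hangs in the same ventricles, had medians of 0.955 CPM in the prefrontal cortex, 5.98 CPM in the hypothalamus and 737 CPM in the hippocampus. Animal 20 reached 409 CPM of Ttr in the prefrontal cortex and animal 28 reached 273 CPM in the hypothalamus, both large-network males.

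The 7 motile cilia genes were lowest in the prefrontal cortex, intermediate in the hippocampus and highest in the hypothalamus. Foxj1, the regulator of motile cilium formation, is on chromosome 11 (GRCm38, 116330704 to 116335399, minus strand). It had 1.58, 2.59 and 5.50 CPM as the lowest, median and highest value in the prefrontal cortex, 5.82, 9.81 and 14.3 CPM in the hippocampus, and 15.2, 19.4 and 30.4 CPM in the hypothalamus. No library of 1 region lay within the range of another, and in 28 of 28 animals with all 3 regions the order was the same. In the hypothalamus Foxj1 was 7.64-fold higher than in the prefrontal cortex (log2 fold change 2.93 ± 0.0857, SE) and 1.99-fold higher than in the hippocampus (0.99 ± 0.0776), with adjusted p values of 6.88e-40 and 4.32e-18 in edgeR's quasi-likelihood test with the animal as a block.

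As a description, the 250 bases before the transcription start were read for those members whose start is in the RefSeq promoter table (build GRCm38.p6). The table held 6 of the 10 members, Ccdc153, Tmem212, Dynlrb2, Ak7, Cfap126 (3 starts) and Gpr50. Both strands were searched for GTTGCC, a core of the Rfx X-box, for the X-box arms GTNNCC and NGNAAC 0 to 3 bases apart, and for the forkhead letters GTAAACA and ATAAACA. The first 2 of these overlap wherever an X-box begins with GTTGCC. The windows of 4 members held a match and are shown here 5′ to 3′ on the strand of the gene, with the matches in capitals.
Ccdc153 (chr9:44240427-44240676, + strand): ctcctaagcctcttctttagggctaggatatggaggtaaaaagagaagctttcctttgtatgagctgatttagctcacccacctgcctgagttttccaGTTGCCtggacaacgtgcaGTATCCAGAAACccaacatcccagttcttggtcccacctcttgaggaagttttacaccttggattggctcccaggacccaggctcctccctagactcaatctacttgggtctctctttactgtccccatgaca
Dynlrb2 (chr8:116504765-116505014, + strand): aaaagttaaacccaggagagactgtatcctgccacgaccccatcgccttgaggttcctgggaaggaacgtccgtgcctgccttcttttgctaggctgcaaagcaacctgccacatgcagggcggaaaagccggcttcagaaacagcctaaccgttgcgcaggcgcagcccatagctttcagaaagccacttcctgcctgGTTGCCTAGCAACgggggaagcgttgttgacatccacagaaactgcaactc
Tmem212 (chr3:27896369-27896618, - strand): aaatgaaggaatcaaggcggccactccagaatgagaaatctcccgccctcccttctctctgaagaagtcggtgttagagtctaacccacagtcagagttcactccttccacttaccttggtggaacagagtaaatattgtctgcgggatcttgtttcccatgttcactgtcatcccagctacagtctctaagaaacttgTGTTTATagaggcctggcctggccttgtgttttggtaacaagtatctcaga
Ak7 (chr12:105705732-105705981, + strand): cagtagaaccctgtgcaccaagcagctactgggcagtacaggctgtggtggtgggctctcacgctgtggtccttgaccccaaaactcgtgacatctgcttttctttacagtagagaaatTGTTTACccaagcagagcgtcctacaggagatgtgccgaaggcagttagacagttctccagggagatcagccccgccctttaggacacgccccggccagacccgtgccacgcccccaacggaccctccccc
In Dynlrb2 this core began 51 bases before the start and was part of the arms GTTGCCTAGCAAC. Ccdc153 held GTTGCC from 152 bases before the start and a separate match of the arms, GTATCCAGAAAC, from 133 bases before it. Tmem212 and Ak7 held a forkhead match in reverse complement, TGTTTAT from 51 bases and TGTTTAC from 131 bases before the start. Of the 32851 windows of the same length in the table, 10.4% held GTTGCC, 4.42% the arms, 3.17% GTAAACA and 4.16% ATAAACA, so that each match was also found in many windows of other genes. The windows of Cfap126 and Gpr50 did not hold these letters. A link between these letters and the levels of the members was not tested.

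Ccdc153, a coiled-coil gene of ciliated ependymal cells on chromosome 9 (44240676 to 44247306, plus strand), had 0, 0.0932 and 2.07 CPM as the lowest, median and highest value in the prefrontal cortex. The values were 2.31, 4.59 and 8.13 CPM in the hippocampus and 6.92, 11.2 and 23.6 CPM in the hypothalamus. The prefrontal cortex did not overlap with either region, and 27 of 28 hypothalamus libraries lay above the highest hippocampus library. The log2 fold change was 5.58 ± 0.227 (SE) between hypothalamus and prefrontal cortex and 1.38 ± 0.165 between hypothalamus and hippocampus (adjusted p = 2.89e-11 for the second, edgeR). The first is given as a description, since Ccdc153 failed the filter on low counts in the prefrontal cortex of each sex. With the DESeq2 Wald test it was 6.20, and the log2 fold change between hippocampus and prefrontal cortex was 4.82 in place of 4.19, both more than 1.5 times the fold.

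Tmem212, a transmembrane protein gene of ependymal cells on chromosome 3 (27866066 to 27896368, minus strand), was close to the limit of detection in the prefrontal cortex. Its count was 0 in 14 of 29 prefrontal cortex libraries, with a median of 1 count and a highest value of 0.53 CPM. It had 0.488, 1.35 and 2.80 CPM in the hippocampus and 2.15, 3.16 and 6.87 CPM in the hypothalamus, again as the lowest, median and highest value. The highest prefrontal cortex library, that of animal 20, lay just above the lowest hippocampus library. The hypothalamus exceeded the hippocampus 2.45-fold (log2 fold change 1.29 ± 0.148, SE, adjusted p = 8.36e-12, edgeR), and the log2 fold change against the prefrontal cortex, again a description, was 6.09 ± 0.229.

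Ak7, an adenylate kinase of the axoneme (chromosome 12, 105705976 to 105782447, plus strand), had 0.0318, 0.25 and 1.99 CPM in the prefrontal cortex, 2.03, 3.95 and 7.51 CPM in the hippocampus and 5.87, 10.5 and 16.2 CPM in the hypothalamus. Its log2 fold change was 4.94 ± 0.165 (SE) between hypothalamus and prefrontal cortex and 1.44 ± 0.127 between hypothalamus and hippocampus, the widest step between the last 2 regions among the motile cilia members. Cfap126, also called Flattop, which positions basal bodies (chromosome 1, 171113918 to 171126967, plus strand), had 0.0729, 0.265 and 1.34 CPM, then 0.926, 1.74 and 3.79 CPM, then 2.51, 3.97 and 8.22 CPM in the same order of regions. Of its hypothalamus libraries, 17 of 28 lay above every hippocampus library. The log2 fold changes were 3.60 ± 0.15 and 1.20 ± 0.126 (SE).

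Rsph1, a radial spoke head gene (chromosome 17, 31255019 to 31277383, minus strand), and Dynlrb2, a dynein light chain of the roadblock type (chromosome 8, 116504974 to 116515915, plus strand), shared the order of the regions at different levels. Rsph1 had 6.30, 8.86 and 12.7 CPM in the prefrontal cortex, 9.93, 16.1 and 22.7 CPM in the hippocampus and 16.7, 29.8 and 41.2 CPM in the hypothalamus. Dynlrb2 had 0.0233, 0.232 and 0.579 CPM, then 0.269, 0.891 and 2.16 CPM, then 1.14, 1.83 and 3.52 CPM. Rsph1 kept the order of the regions in 28 of 28 animals and Dynlrb2 in 26 of 28. The log2 fold changes between hypothalamus and prefrontal cortex were 1.78 ± 0.0538 (SE) for Rsph1 and 2.92 ± 0.139 for Dynlrb2, and those between hypothalamus and hippocampus were 0.92 ± 0.0521 and 1.08 ± 0.121. Dynlrb2 failed the filter on low counts in the prefrontal cortex of females, so its value against that region is a description. Per kilobase of exon, Rsph1 was the most abundant of the motile cilia members in every region, with 22.2 ± 3.59 CPM per kilobase in the hypothalamus (SD, n = 28), followed by Foxj1 with 7.49 ± 1.38. Cfap126 was the lowest member there, with 2.34 ± 0.639.

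**Figure D1:**
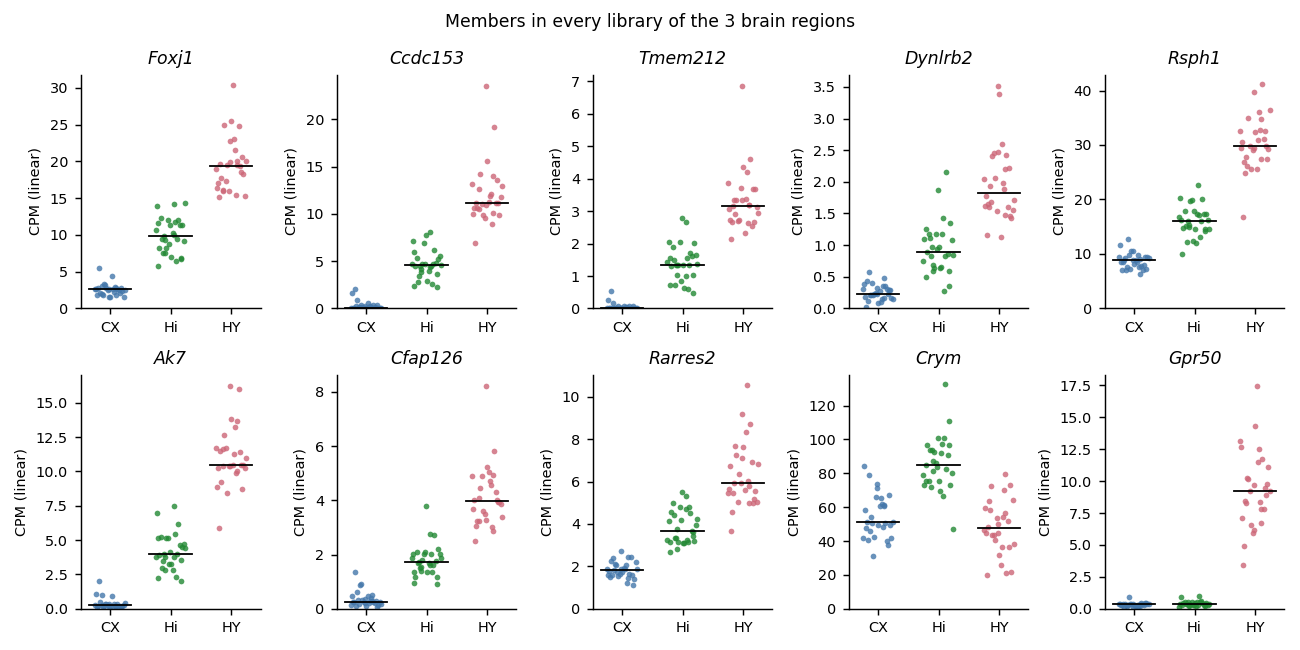
CPM (linear axis) of the 10 members in every library, by region (CX, prefrontal cortex; Hi, hippocampus; HY, hypothalamus), with each library as a point and the median as a bar. Foxj1, Ccdc153, Tmem212, Dynlrb2, Rsph1, Ak7, Cfap126 and Rarres2 climb from CX over Hi to HY, Crym is highest in Hi, and Gpr50 is above 1 CPM only in HY.

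The 3 other members did not share 1 pattern. Gpr50, an X-linked orphan receptor related to the melatonin receptors and known from tanycytes (chromosome X, 71663667 to 71669257, plus strand), was a gene of the hypothalamus. It had 3.46, 9.20 and 17.5 CPM there, against 0.127, 0.354 and 0.955 CPM in the prefrontal cortex and 0.167, 0.391 and 0.971 CPM in the hippocampus. Every hypothalamus library lay above all libraries of the other regions. The hypothalamus was 27.1-fold higher than the prefrontal cortex (log2 fold change 4.76 ± 0.142, SE, adjusted p = 2.58e-39, edgeR) and 22.1-fold higher than the hippocampus (4.47 ± 0.14). Between hippocampus and prefrontal cortex its log2 fold change was 0.29 ± 0.178 (adjusted p = 0.139, edgeR), so that these neighbours in the order did not differ beyond their spread.

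Rarres2, which encodes the secreted protein chemerin (chromosome 6, 48569696 to 48572789, minus strand), followed the order of the cilia genes with smaller steps. It had 1.12, 1.84 and 2.73 CPM in the prefrontal cortex, 2.66, 3.67 and 5.50 CPM in the hippocampus and 3.66, 5.93 and 10.6 CPM in the hypothalamus, with the same order in 28 of 28 animals. The log2 fold changes were 1.77 ± 0.0648 (SE) between hypothalamus and prefrontal cortex and 0.70 ± 0.0617 between hypothalamus and hippocampus. Rarres2 shares 892 exonic bases with Lrrc61 on the opposite strand, and without a stated strand setting the reads of the 2 genes cannot be told apart there. Lrrc61 itself moved less, by 0.39 ± 0.0262 and 0.49 ± 0.0263 in the same comparisons, and it was lower in the hippocampus than in the prefrontal cortex by a log2 fold change of -0.10 ± 0.0262 where Rarres2 was higher by 1.07 ± 0.0651.

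Crym, the gene of mu-crystallin, a thyroid hormone binding protein of the cytosol (chromosome 7, 120186380 to 120202111, minus strand), went against the other members in both comparisons of the hypothalamus. It had 31.0, 51.2 and 84.3 CPM in the prefrontal cortex, 47.3, 84.8 and 132 CPM in the hippocampus and 19.8, 47.5 and 79.6 CPM in the hypothalamus, and the 3 ranges overlapped. Like the motile cilia members, Crym was higher in the hippocampus than in the prefrontal cortex (0.66 ± 0.0953, SE, adjusted p = 1.05e-08, edgeR). It was highest in the hippocampus in 24 of 28 animals, and the hypothalamus was lower than the hippocampus by a log2 fold change of -0.87 ± 0.0975 (SE, adjusted p = 3.68e-12, edgeR). Against the prefrontal cortex it was -0.21 ± 0.0976 (adjusted p = 0.0412, edgeR), and this call was lost in 4 of 7 alternatives. The value was -0.21 with no filter on low counts (adjusted p = 0.0575, edgeR), and -0.18 without the hypothalamus library of animal 19 (adjusted p = 0.0770), without the prefrontal cortex library of animal 20 and the hypothalamus library of animal 10 (adjusted p = 0.0849) or with no replicate block for the animal (adjusted p = 0.0993). Crym was also the most abundant member per kilobase in the prefrontal cortex (16.1 ± 3.81 CPM per kilobase, SD, n = 29) and hippocampus (25.3 ± 4.64, SD, n = 29).

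Among the 10 members, 9 were higher and 1, Crym, was lower in the hypothalamus than in the prefrontal cortex at an adjusted p under 0.05, where 42.2% of the 18769 genes tested were higher and 39.1% were lower. Against the hippocampus the counts were again 9 and 1, with 36.8% and 39.5% of all genes. Between hippocampus and prefrontal cortex 9 members were higher and 0 were lower, with 38.8% and 33.3% of all genes, and 9 of 10 had an unadjusted p under 0.05 in this comparison, Gpr50 being the exception. The median log2 fold change of the 10 members was 3.27 between hypothalamus and prefrontal cortex, against 0.02 over all genes, and 1.14 between hypothalamus and hippocampus, against -0.01. Without the prefrontal cortex library of animal 20 and the hypothalamus library of animal 10, the log2 fold change between hypothalamus and prefrontal cortex was 5.88 for Ccdc153, and the counts of higher and lower members were 9 and 0, since Crym no longer passed. All 10 passed the filter on low counts over the 3 regions. On prefrontal cortex libraries alone, Ccdc153 and Tmem212 failed it in each sex, Dynlrb2 in females, and Tmem212 also in both sexes together. The counts are therefore given as a description.

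**Figure D2:**
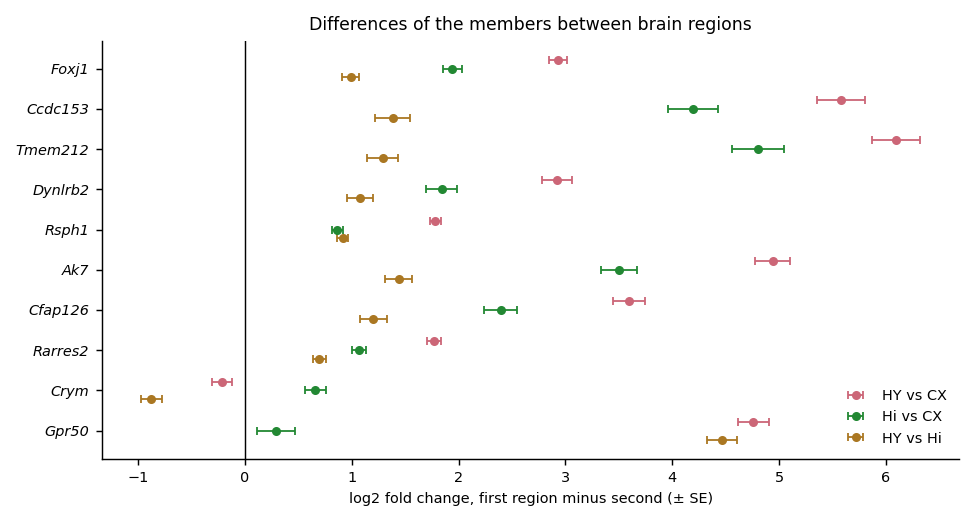
Log2 fold change of each member between 2 regions (first minus second, in edgeR's fit with the animal as a block; bars, standard error), for hypothalamus and prefrontal cortex (HY vs CX), hippocampus and prefrontal cortex (Hi vs CX), and hypothalamus and hippocampus (HY vs Hi). Tmem212 and Ccdc153 have the highest values against CX, at 6.09 and 5.58, and Crym is below 0 in both comparisons of HY.

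The other genes of the axoneme, taken from lists of their parts, showed the same order in most but not all cases. Of the axonemal dyneins, 12 of 13 tested were higher in the hypothalamus than in the prefrontal cortex and 1, Dnal1, was lower, and 9 were higher and 2 lower than in the hippocampus. Over all genes, 42.2% were higher and 39.1% lower than in the prefrontal cortex, and 36.8% and 39.5% against the hippocampus. Dnali1, a dynein light intermediate chain, had the largest difference from the prefrontal cortex (4.32 ± 0.137, SE), followed by the heavy chains Dnah12 (3.81 ± 0.122), Dnah6 (2.60 ± 0.0808) and Dnah10 (2.23 ± 0.0759). Of 14 radial spoke and central pair genes, 10 were higher and 1, Cfap54, was lower than in the prefrontal cortex, and 12 were higher and 1, again Cfap54, was lower than in the hippocampus. Spag16 (3.96 ± 0.166), Hydin (3.34 ± 0.102), Spag17 (3.20 ± 0.141) and Cfap221 (3.19 ± 0.152), all of the central pair, led this list. Their means in the prefrontal cortex were only 0.227, 0.807, 0.187 and 0.121 CPM. Of 28 other genes of the axoneme and its assembly, 26 were higher and 1, Lrrc6, was lower than in the prefrontal cortex, and 25 were higher and 0 lower than in the hippocampus, where 26 of 28 had an unadjusted p under 0.05. Cfap161 (3.85 ± 0.132), Drc7 (3.27 ± 0.149), Tekt4 (3.03 ± 0.11) and Pifo (2.89 ± 0.174) had the largest values. Drc7, a gene of the nexin-dynein regulatory complex, did not pass the test against the hippocampus (0.25, adjusted p = 0.0588, edgeR). The median log2 fold changes against the prefrontal cortex were 1.65, 1.12 and 1.56 for these 3 lists. Between hippocampus and prefrontal cortex 11, 9 and 23 of these genes were higher and 2, 3 and 3 were lower (38.8% and 33.3% of all genes). On prefrontal cortex libraries alone, 13, 10 and 26 genes passed the filter on low counts in females and 13, 10 and 25 in males. The counts and values against the prefrontal cortex are therefore given as a description. The lower genes named, Dnal1, Cfap54 and Lrrc6, were chosen for mention after their values were seen.

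Of 11 regulators of multiciliated cells, 7 were higher and 3 lower in the hypothalamus than in the prefrontal cortex (42.2% and 39.1% of all genes). Against the hippocampus 6 were higher and 5 lower (36.8% and 39.5% of all genes), so that both directions were also common among all genes. Deup1, which builds the deuterosomes that multiply centrioles, rose with the cilia members (log2 fold change 4.24 ± 0.115 against the prefrontal cortex and 1.80 ± 0.0938 against the hippocampus, SE), as did Myb (2.89 ± 0.156 and 1.20 ± 0.137), Trp73 (2.56 ± 0.0946 and 0.89 ± 0.0857) and Ccdc78 (1.57 ± 0.0832 and 1.09 ± 0.0815). Gmnc, a geminin-like gene that acts before Foxj1 in the multiciliated lineage, differed from them, with a mean of 0.417 CPM in the hypothalamus, 0.585 CPM in the prefrontal cortex and 1.90 CPM in the hippocampus. Rfx3 and E2f4 were also lower in the hypothalamus than in both other regions, and Ccno and E2f5 were lower than in the hippocampus alone. Gmnc, Rfx3, E2f4, Ccno and E2f5 were named after their values were seen. On prefrontal cortex libraries alone, 9 of the 11 regulators passed the filter on low counts in each sex. The counts against that region are therefore a description.

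The list of 14 tanycyte genes gave no single direction. Of the 13 tested, 6 were higher and 6 lower in the hypothalamus than in the prefrontal cortex, and 5 were higher and 7 lower than in the hippocampus, with a median log2 fold change of -0.10 and -0.59. These counts lay near the shares of all genes, 42.2% higher and 39.1% lower against the prefrontal cortex and 36.8% and 39.5% against the hippocampus, and so say little about tanycytes. Rax, the homeobox gene that defines tanycytes, was low, with 0.0256, 0.171 and 0.72 CPM as the lowest, median and highest hypothalamus value, and it did not pass the filter. It was nonetheless higher in the hypothalamus than in the prefrontal cortex in 28 of 28 animals (means of 0.238 and 0.0201 CPM) and higher than in the hippocampus in 26 of 28 (0.0599 CPM). Dio2, the deiodinase that makes active thyroid hormone in tanycytes and also in astrocytes, was lower in the hypothalamus than in the prefrontal cortex by a log2 fold change of -2.41 ± 0.0599 (SE), and so were Frzb (-2.51 ± 0.0799) and Lhx2 (-2.27 ± 0.0518). Gpr50 had the highest log2 fold change of the list. Rax and Gpr50 thus followed the label while Dio2, Frzb, Lhx2 and Crym did not, and the 3 members beside the motile cilia genes are named by gene here. Of 5 astrocyte genes, 4 were higher and 1 was lower in the hypothalamus than in the prefrontal cortex, and 2 were higher and 2 lower than in the hippocampus. Gfap had a log2 fold change of 0.66 ± 0.0725 and Gja1 one of 0.42 ± 0.0221 against the prefrontal cortex.

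Many pairs of motile cilia members varied together over the libraries of a region. Within each region, Pearson's r of log2 CPM (prior count of 2) was computed for the 45 pairs of members over 28 or 29 libraries, with two-sided permutation tests of 100000 resamples adjusted over the 135 pairs of the 3 regions. The points of such a correlation share their library, its depth and its scaling. In the hippocampus all 21 pairs of motile cilia members had positive r with an adjusted p under 0.05, between 0.56 and 0.87 with a median of 0.74. In the hypothalamus 18 of 21 did, with r between 0.31 and 0.87 and a median of 0.65, and the other 3 pairs were those of Foxj1 with Tmem212, Dynlrb2 and Rsph1. In the prefrontal cortex 11 of 21 did, with r between 0.12 and 0.86 and a median of 0.42. The highest was that of Ccdc153 and Tmem212, which had means of only 0.282 and 0.0502 CPM there. Dynlrb2, Ak7 and Cfap126 had means of 0.258, 0.38 and 0.353 CPM, so that r in this region rests in part on low counts. By Spearman's rho the numbers were 21, 17 and 9.

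By r, Ccdc153 and Ak7 were the closest pair in the hypothalamus and hippocampus, while by rho Rsph1 and Ak7 were closer in the hippocampus (0.86). In the hypothalamus r was 0.87 and rho 0.79, in the hippocampus 0.87 and 0.85, each with a permutation p of 1e-05, the smallest the resamples can give, and with adjusted p values of 7.11e-05 for r and 0.000123 for rho. Without the 2 animals farthest from the median of Ccdc153, r was 0.83 and 0.82. In the prefrontal cortex r was 0.74 (permutation p = 4e-05, adjusted 0.0002) and rho 0.56 (permutation p = 0.00181, adjusted 0.00679), and r fell to 0.57 without the 2 farthest animals. Without the prefrontal cortex library of animal 20 and the hypothalamus library of animal 10, 7 of 21 cilia pairs passed in the former region and 21 of 21 in the latter, so that these calls depend on single libraries. Without animal 20 in the prefrontal cortex, animals 5 and 6 in the hypothalamus and animals 2 and 4 in the hippocampus, libraries at the ends for several cilia members, the numbers were 6, 15 and 21 of 21.

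**Figure D3:**
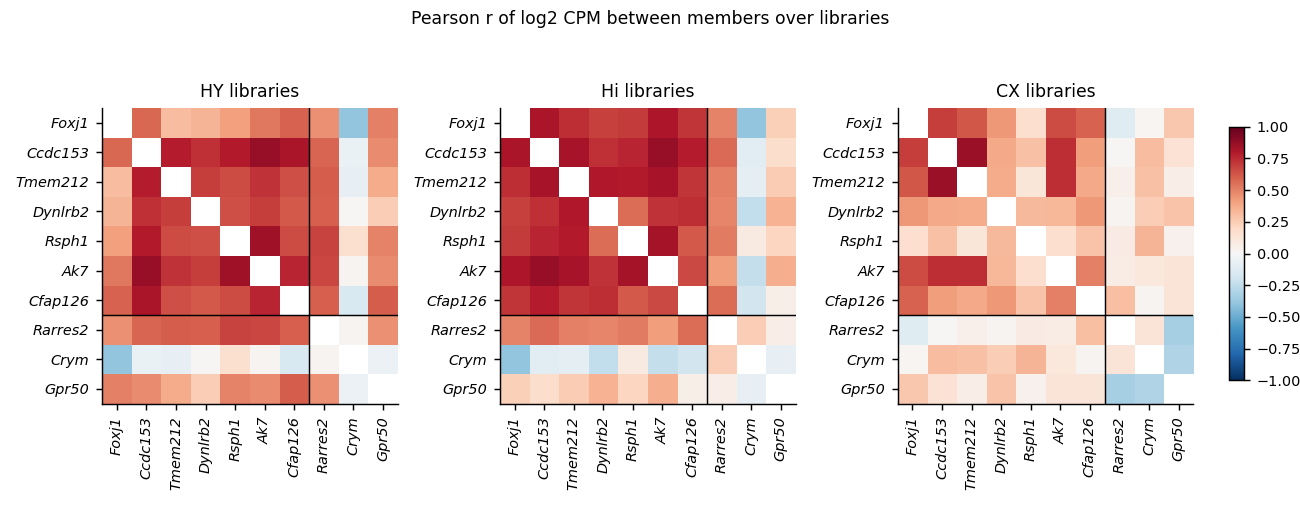
Pearson's r of log2 CPM for each pair of members over the libraries of the hypothalamus (HY, n = 28), hippocampus (Hi, n = 29) and prefrontal cortex (CX, n = 29), with red for positive and blue for negative values. The square of the 7 motile cilia members, marked off by lines, is red throughout in HY and Hi and paler in CX, where its median is 0.42.

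Rarres2, Gpr50 and Crym joined the cilia members to different degrees. In the hypothalamus 13 of 24 pairs outside the cilia square passed by r, those of Rarres2 with the 7 cilia members, of Gpr50 with 5 of them and of Rarres2 with Gpr50, and 7 of 24 passed by rho. The highest r was 0.68, for Rarres2 and Rsph1, and no relation of Crym passed. Without animals 5 and 6 only 3 of the 24 pairs had positive r that passed and 1 had negative r that did, so that most of these relations rest on those animals. Gpr50 was closest to Cfap126, with r = 0.60 (permutation p = 0.00082, adjusted 0.00241) and rho = 0.65 (permutation p = 0.00023, adjusted 0.00115), and r was 0.62 without the 2 farthest animals. In the hippocampus, where the median of Gpr50 was 0.391 CPM, none of its relations passed. Rarres2 passed with 7 of 7 cilia members by r, between 0.42 with Ak7 and 0.57 with Ccdc153, and with 6 of 7 by rho. Without animals 2 and 4, 6 of the 24 pairs outside the cilia square passed by r and 1 by rho there. None of the 24 passed in the prefrontal cortex, by r or by rho, where 0 and 2 had an unadjusted permutation p under 0.05. Crym and Foxj1 had r = -0.39 in both the hypothalamus (permutation p = 0.0392, adjusted 0.0725) and the hippocampus (permutation p = 0.0327, adjusted 0.0613), with rho of -0.35 and -0.38 (permutation p = 0.0683 and 0.0449, adjusted 0.121 and 0.0866), which did not pass. The difference in r between regions was not tested.

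Single libraries stood at the ends for several cilia members at once. In the hypothalamus animal 6 (small-network male) was lowest for 6 of 7, with a median of 0.633 times the level of the median library, and also lowest for Rarres2, Crym and Gpr50. Its summed levels of the 3 axoneme lists, of the multiciliogenesis regulators and of the astrocyte genes were the lowest of the region too. The last was 1011 CPM against a median of 1193 CPM, so that its low values were not limited to the members. Animal 5 (small-network female) was highest for 5 of 7, with a median ratio of 1.92, and its Ttr was 15.1 CPM. That library also had the highest summed level of 8 pituitary markers in the hypothalamus, 55.6 CPM against a median of 2.35 CPM, whose part in its values was not tested. In the hippocampus animal 2 (large-network female) was highest for 3 of 7 and animal 4 (small-network female) lowest for 4 of 7. In the prefrontal cortex animal 20 was highest for 5 of 7, with a median ratio of 5.06. Its Ccdc153 level of 2.07 CPM was nonetheless below the lowest hippocampus library, at 2.31 CPM.

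The choroid plexus marker Ttr moved with the cilia members in the hippocampus but not detectably in the hypothalamus. Over 29 hippocampus libraries, where Ttr ranged from 258 CPM in animal 4 to 1437 CPM in animal 2, r with the 7 cilia members lay between 0.57 and 0.81, and 7 of 7 passed after adjustment over 30 relations of the 3 regions. The highest was that of Cfap126, with r = 0.81 and rho = 0.80, each with a permutation p of 1e-05, the smallest possible, and adjusted p values of 0.0003, and r was 0.76 without the 2 farthest animals. Rarres2 also passed, with r = 0.48 (permutation p = 0.00824, adjusted 0.0309) and rho = 0.48 (permutation p = 0.00934, adjusted 0.035). In the hypothalamus r of the cilia members with Ttr lay between -0.16 and 0.04 and 0 of 7 passed, by r or by rho, none of them with an unadjusted permutation p under 0.05. Gpr50 had r = -0.42 (permutation p = 0.0279, adjusted 0.084) and rho = -0.46 (permutation p = 0.0139, adjusted 0.0463) with Ttr there. In the prefrontal cortex r lay between -0.24 and 0.45 and 0 of 7 passed, with an unadjusted permutation p under 0.05 for 1, Tmem212. Without the library of animal 20 it lay between -0.41 and -0.05. Without animals 2 and 4, 6 of 7 cilia members and 0 of the other 3 passed in the hippocampus. All 13 choroid plexus genes were higher in the hippocampus than in the prefrontal cortex (38.8% of all genes). In the hypothalamus 12 of 13 were lower than in the hippocampus (39.5% of all genes), so that their order of the regions differed from that of the cilia members. The exception was Clic6, which was higher there by 1.26 ± 0.183 (SE) and so had the order of the cilia members. Against the prefrontal cortex, 9 choroid plexus genes were higher and 1 was lower in the hypothalamus (42.2% and 39.1% of all genes). These were led by Clic6 (4.32 ± 0.222, SE), Otx2 (3.55 ± 0.296), Sostdc1 (2.99 ± 0.238) and Ttr (2.47 ± 0.514). On prefrontal cortex libraries alone, 7 of the 13 choroid plexus genes passed the filter on low counts in each sex. The counts against that region are therefore a description. The part of choroid plexus in the hippocampus values was not tested.

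**Figure D4:**
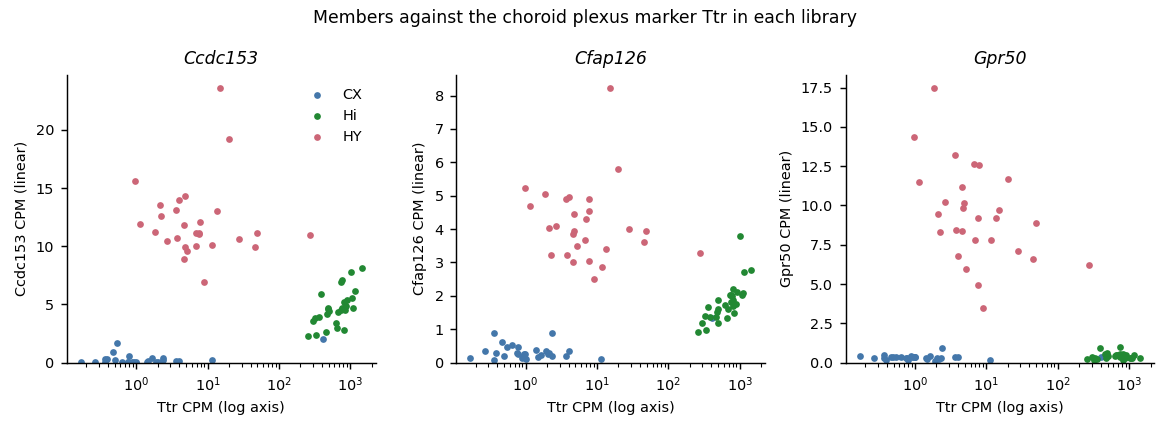
CPM of Ccdc153, Cfap126 and Gpr50 (linear axis) against CPM of Ttr (log axis) in each library, coloured by region (CX, prefrontal cortex; Hi, hippocampus; HY, hypothalamus). Within Hi, Ccdc153 and Cfap126 rise with Ttr (r = 0.64 and 0.81), while HY has the highest Ccdc153 and Cfap126 at a median Ttr of 5.98 CPM.

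For most members, no relation between levels in 2 regions of the same animal was detected. Between hypothalamus and hippocampus r of the cilia members was nonetheless always above 0, from 0.15 for Foxj1 to 0.59 for Rsph1, while that of Gpr50 was -0.34. Signs were mixed in the other pairs of regions. Of 30 relations, those of Tmem212 and Rsph1 between hypothalamus and hippocampus passed by r (0.56 and 0.59, permutation p = 0.0019 and 0.0013, adjusted 0.0291 for both), but not by rho (0.33 and 0.40, permutation p = 0.0891 and 0.0361, adjusted 0.535 and 0.469). Without the 2 farthest animals r was 0.40 and 0.32, so that these relations rest in part on single animals.

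The genes most like the cilia members were named as the 10 genes, members aside, with the highest r of log2 CPM with the mean standardized level of the 7 cilia members, as a description. Over 28 hypothalamus libraries, among 16369 genes with a mean of at least 0.5 CPM, these were Dnali1 (0.929), Fam183b (0.869), Ccdc146 (0.868), Lrrc23 (0.866), Lrrc36 (0.861), Pifo (0.857), Iqcg (0.853), 2410004P03Rik (0.852), Cfap43 (0.845) and Cdhr3 (0.844). Over 29 hippocampus libraries they were Wdr63 (0.908), Dnali1 (0.907), 2410004P03Rik (0.881), Cfap161 (0.879), Col8a2 (0.875), Spag16 (0.86), Iqca (0.843), Ttc21a (0.826), Calml4 (0.825) and Cfap43 (0.814). Dnali1, 2410004P03Rik and Cfap43 were in both sets. In the prefrontal cortex the genes were Zfp882 (0.786), Drc7 (0.783), Ccdc187 (0.776), Six3os1 (0.772), Casp8ap2 (0.74), Mum1l1 (0.718), Spint1 (0.703), Isl1 (0.703), Clic6 (0.696) and Rarb (0.693), of which only Drc7 was in a list of cilia genes and Clic6 in that of the choroid plexus. Only 2 of the 7 cilia members reached a mean of 0.5 CPM there, so that the cilia mean rests largely on low values. Zfp882 and Casp8ap2 had r of -0.17 and -0.29 in the hippocampus, while Drc7 had 0.76. The median r with the cilia mean was 0.69 for the axonemal dyneins, 0.60 for radial spoke and central pair genes and 0.68 for the other axoneme genes in the hypothalamus, against 0.01 over all genes, and 0.28, 0.52 and 0.51 in the hippocampus. The prefrontal cortex gave 0.02, 0.15 and 0.05, against -0.01 over all genes. Choroid plexus genes had a median r of 0.59 in the hippocampus, 0.02 in the hypothalamus and 0.30 in the prefrontal cortex. Tanycyte genes had -0.03, -0.05 and 0.13, in the same order.

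Social network size was compared within each sex and region, which is the question for which the animals were chosen. In these 6 comparisons, 3 of sex and 3 of sex by social network size, 0 of 113 tests of a member had an adjusted p under 0.05 in edgeR's quasi-likelihood test, and 5 had an unadjusted p under 0.05. With the DESeq2 Wald test the numbers were 0 and 10, with a lowest adjusted p of 0.229. Log2 fold changes are those of small relative to large social network sizes. In females, 0 of 7 members tested passed in the prefrontal cortex (0.0113% of all genes did) and 1 of 7 had an unadjusted p under 0.05 (9.59% of all genes). In the hypothalamus of females it was 0 of 10 (0.00552%) and 0 of 10 unadjusted (7.39%), and in the hippocampus of females 0 of 10 (0%) and 0 of 10 unadjusted (12.2%). In males, 0 of 8 members passed in the prefrontal cortex (0%). The hypothalamus of males gave 0 of 10 (0%), as did the hippocampus (0%), and 0 in each region had an unadjusted p under 0.05 (2.52%, 2.9% and 3.88% of all genes). Log2 fold changes of the members were widest in the prefrontal cortex, between -0.02 and 0.73 in females, where 6 of 7 were above 0, and between -0.75 and 0.11 in males, where 2 of 8 were. They lay between -0.32 and 0.29 in the hypothalamus of females and between -0.40 and 0.24 in that of males, where 9 of 10 were below 0. In the hippocampus they lay between -0.23 and 0.33 in females and between -0.09 and 0.33 in males. Over all genes, 8830 of 17710 and 9017 of 17781 were above 0 in the prefrontal cortex of females and males. In the hypothalamus of males 9756 of 18053 were. Members vary together in a library, so their signs are not independent. Animal 6, a small-network male, was lowest in the hypothalamus for 6 of 7 cilia members.

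The 1 member named in the size comparisons was Foxj1 in the prefrontal cortex of females. Its lowest, median and highest values were 1.62, 2.64 and 3.25 CPM in 7 small-network females and 1.58, 2.01 and 2.61 CPM in 7 large-network females. The groups overlapped, and the log2 fold change was 0.37 ± 0.153 (SE, unadjusted p = 0.0258, adjusted p = 0.496, edgeR). In males the same gene had medians of 2.54 CPM (small network) and 2.72 CPM (large network).

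Between the sexes, 0 of 9, 0 of 10 and 0 of 10 members passed in the prefrontal cortex, hypothalamus and hippocampus (0.0976%, 0.117% and 0.102% of all genes), and 1, 0 and 1 had an unadjusted p under 0.05 (4.98%, 6.79% and 5.99% of all genes). Foxj1 was higher in males than in females of the prefrontal cortex by a log2 fold change of 0.30 ± 0.139 (SE, unadjusted p = 0.0356, adjusted p = 0.986, edgeR). The highest male value, 5.50 CPM, was that of animal 20. Gpr50 in the hippocampus was higher in males by 0.52 ± 0.219 (unadjusted p = 0.0232, adjusted p = 0.811, edgeR), at medians of 0.493 and 0.428 CPM in large-network and small-network males and 0.358 and 0.313 CPM in the corresponding females. These values are at the level of 8 to 47 counts per library, and the groups overlapped.

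For the interaction of sex with social network size, coded as the log2 fold change in females minus that in males, 0 of 9, 0 of 10 and 0 of 10 members passed in the prefrontal cortex, hypothalamus and hippocampus (0%, 0% and 0% of all genes), and 1, 1 and 0 had an unadjusted p under 0.05 (4.17%, 6.14% and 7.37% of all genes). Cfap126 in the prefrontal cortex differed by 1.40 ± 0.646 (SE, unadjusted p = 0.0383, adjusted p = 0.997, edgeR). Its medians were 0.232 CPM in small-network and 0.255 CPM in large-network females, and 0.278 and 0.341 CPM in the corresponding males, whose highest value of 1.34 CPM was again that of animal 20. Dynlrb2 in the hypothalamus differed by 0.70 ± 0.279 (unadjusted p = 0.0174, adjusted p = 0.775, edgeR), with medians of 2.22 and 1.94 CPM in small-network and large-network females and 1.60 and 1.77 CPM in the corresponding males. All 4 groups overlapped.

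**Figure D5:**
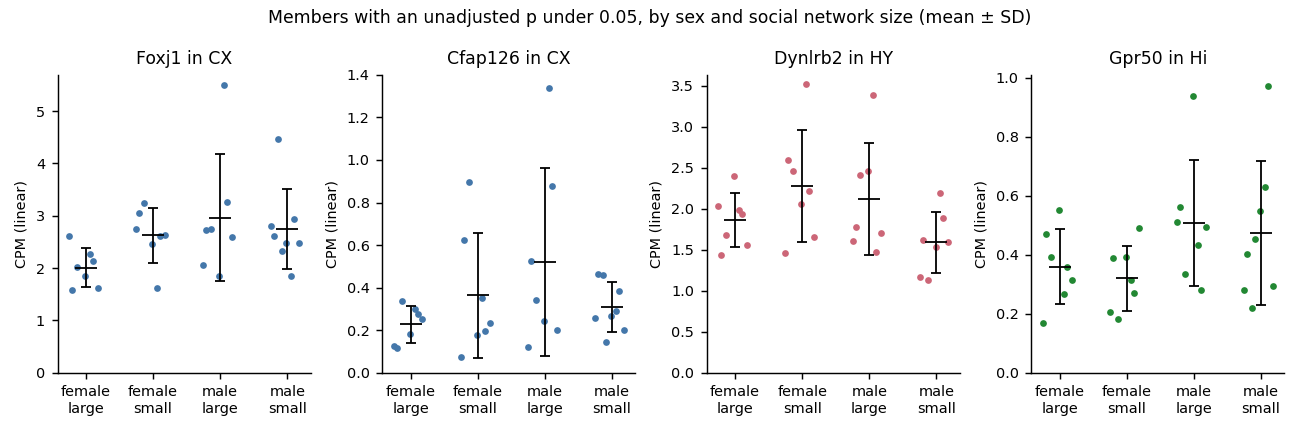
CPM (linear axis) of the members with an unadjusted p under 0.05 in a comparison of social network size, sex or both, by group, with each library as a point and the mean ± SD in black, for Foxj1 and Cfap126 in the prefrontal cortex (CX), Dynlrb2 in the hypothalamus (HY) and Gpr50 in the hippocampus (Hi). The 4 groups overlap in every panel, and the highest Foxj1 (5.50 CPM) and Cfap126 (1.34 CPM) are in large-network males.

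Markers of neurons differed between the dissections, though not all were highest in the region they are named for. In the hypothalamus, 6 of 6 hypothalamic neuropeptide genes were higher than in the prefrontal cortex, led by Avp (8.92 ± 0.359, SE), Oxt (8.89 ± 0.248), Hcrt (8.78 ± 0.275) and Pmch (8.47 ± 0.247). Of 6 cortical layer genes 4 were lower than in the prefrontal cortex, with Fezf2 (-3.62 ± 0.0741) the lowest, and 1, Foxp2 (1.15 ± 0.067), was higher. Against the hippocampus 4 of these were lower and 2 higher. Of 6 hippocampal genes 5 were higher, led by C1ql2 (3.39 ± 0.0802), and 1 lower than in the prefrontal cortex. All 6 were lower than in the hippocampus. Of 8 pituitary markers 4 passed the filter and were higher than in the prefrontal cortex, with Gh at 4.71 ± 0.619. Gh was higher in 19 and lower in 6 of 28 animals. Against the hippocampus 2 of the 4 were higher and 0 lower, and Gh did not pass (-0.47 ± 0.434, adjusted p = 0.326, edgeR). On prefrontal cortex libraries alone, 2 pituitary, 4 neuropeptide and 5 hippocampal genes passed the filter on low counts in each sex. The shares over all genes were 42.2% higher and 39.1% lower than in the prefrontal cortex, and 36.8% and 39.5% against the hippocampus. In the hypothalamus library of animal 10, where these neuropeptides were lowest, Foxj1 (30.4 CPM) and Gpr50 (17.5 CPM) were the highest and Dynlrb2 (1.14 CPM) was the lowest of all 28 hypothalamus libraries.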

How the data were processed

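Per the labels and the study's methods, the authors called bases with CASAVA 1.8.2, aligned the reads to the mouse genome (mm10) with STAR, counted reads per Ensembl gene with HTSeq, and deposited 1 table of raw read counts with 35275 genes and 86 libraries. The library kit was not described as directional, and the strand setting and annotation release are not given in the sources used here. Symbols, positions and exon lengths came from GENCODE vM21 (GRCm38), in which 34490 identifiers were found, and promoter sequences from RefSeq. The data columns were matched to samples by title, 0 columns were left without a sample, and the number in each title named the animal and so paired the 3 regions.

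The counts were fitted with edgeR 4.0.16 (R 4.3.3), using TMM scaling, filterByExpr (minimum count 10, total 15, proportion 0.7), the quasi-likelihood test and Benjamini-Hochberg adjustment over all genes tested at a threshold of 0.05. Regions were compared in 1 fit of all libraries with the animal as a block, since the same animals gave all 3 regions. Network size was compared within sex and region on the 2 groups alone. The study made the same comparisons but with DESeq2. Sex and interaction were compared in a fit of the 4 groups of a region. Nothing in the labels ties animals of different groups together, so these comparisons have no block. Library totals of 33711824 to 81865801 counts set the precision of low values, and the spread between animals is the error of every test. Correlations used log2 CPM (prior count 2) with 100000 permutations in Python 3.11.15 (scipy 1.17.1, numpy 2.4.6, pandas 2.3.3). Figures were drawn with matplotlib 3.10.9.

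In the region comparisons all 10 members were named. In the other comparisons a member was named at an unadjusted p under 0.05, of each further list up to 4 genes with the largest absolute log2 fold change between hypothalamus and prefrontal cortex, and the 10 genes most alike per region at a mean of at least 0.5 CPM. The members and the lists (axonemal dyneins, radial spoke and central pair, other axoneme and assembly, multiciliogenesis regulators, tanycytes, choroid plexus, pituitary, hypothalamic, cortical layer and hippocampal neurons, astrocytes) were chosen with earlier results of these data known. Of 126 further list genes 124 were matched, Dnai1 and Dnai2 being the exceptions. Alternatives were DESeq2 size factors, the DESeq2 1.42.0 Wald test, no filter on low counts, no block, 4 groups in 1 fit, a prior count of 0.5, deviations from group means and left-out libraries. The fits and correlations were tested on simulated data.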

Additional observations from a re-analysis of the deposited data

Results flagged for a closer look

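Of 120 sets of a member's values in 1 group of 7 or 8 animals of a region, 24 had 1 library whose gap to the others was above the 95% critical value of Dixon's test, where chance gives about 1 in 20 groups. These values fell in 14 libraries, and since members vary together in a library they are not independent.

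In the prefrontal cortex, animal 20 (large-network male) had 5.50 CPM of Foxj1, 2.07 CPM of Ccdc153, 0.53 CPM of Tmem212 and 1.99 CPM of Ak7, where the other males of the group reached 3.27, 0.238, 0.0909 and 0.501 CPM. Its Ttr, at 409 CPM, was also the highest of the region. Animal 25 (small-network female) had 0.869 CPM of Ccdc153, 0.178 CPM of Tmem212 and 1.02 CPM of Ak7, and animal 15 (small-network male) had 1.66 CPM of Ccdc153 and 0.251 CPM of Tmem212, with Ttr at 0.468 and 0.541 CPM. Single values stood apart in animal 10 for Foxj1 (4.46 CPM), in animal 2 for Ccdc153 (0.279 CPM), in animal 30 for Rsph1 (12.7 CPM) and in animal 11 for Gpr50 (0.143 CPM, lower than the others of its group).

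In the hypothalamus, animal 5 (small-network female) had 23.6 CPM of Ccdc153, 6.87 CPM of Tmem212, 16.2 CPM of Ak7 and 8.22 CPM of Cfap126, against at most 13.6, 3.68, 11.7 and 4.90 CPM in the others of its group. Animal 10 had 30.4 CPM of Foxj1, animal 4 had 73.0 CPM of Crym, and animal 6 had 3.66 CPM of Rarres2, lower than the others of its group. In the hippocampus, animal 2 (large-network female) had 7.51 CPM of Ak7 and 5.30 CPM of Rarres2, animal 7 had 132 CPM of Crym, and animal 28 had 0.939 CPM of Gpr50.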

How the results depend on the processing

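Genes differing between regions numbered 15258 (hypothalamus and prefrontal cortex), 14333 (hypothalamus and hippocampus) and 13519 (hippocampus and prefrontal cortex), and 14363, 13192 and 12255 with no replicate block for the animal. No alternative reversed a member or moved these counts by over 1.5 times, and, Crym between hypothalamus and prefrontal cortex aside, no member's region call changed. For network size, the main counts over all genes of 2 and 1 in the prefrontal cortex and hypothalamus of females and 0 in the other 4 comparisons became 4 and 0 with 4 groups in 1 fit, and 1 in the prefrontal cortex of males. With no filter they were 6, 3 and 1 in the prefrontal cortex, hypothalamus and hippocampus of females. With DESeq2, the package that the study used, they were 74, 43 and 95 in the same order, and 2 and 1 in the prefrontal cortex and hypothalamus of males. Leaving out single animals gave 0 to 5, 0 to 14 and 0 to 0 in females and 0 to 1, 0 to 0 and 0 to 0 in males, the 14 without animal 5, and 0.32 to 0.46 for the log2 fold change of Foxj1 in the prefrontal cortex of females. DESeq2 gave 29, 40 and 31 genes differing between the sexes, in place of 18, 22 and 19, in the prefrontal cortex, hypothalamus and hippocampus, and 30 and 1 genes with an interaction in the prefrontal cortex and hippocampus, in place of 0. Relations between members in the prefrontal cortex fell from 11 to 7 without animal 20 there and animal 10 in the hypothalamus. They fell to 6, and from 31 to 19 in the hypothalamus (18 positive and 1 negative), without animal 20 in the prefrontal cortex, animals 5 and 6 in the hypothalamus and animals 2 and 4 in the hippocampus, the adjustment running over all regions. These 2 settings were chosen after seeing the data. The causes of the other shifts were not tested. Depth limits Tmem212, Ccdc153 and Dynlrb2 in the prefrontal cortex, where a few counts decide their values.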
